A study of Mus musculus with 6 samples.

Results

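The genes described here are those of the lysosome's proteases, proton pump and membrane glycoproteins in the mouse spleen. They were taken by name, as every probe set that the platform annotation gives 1 gene symbol beginning with Atp6v, or made of Cts and a letter, or of Lamp and a digit. Ctsg, a neutrophil granule protease, was left out. The rule found 80 probe sets of 40 genes, among 34945 probe sets of 18193 genes. Whole spleens came from Balb/c mice of 6 to 8 weeks. Of these, 3 mice were dosed intragastrically with PFOS (perfluorooctane sulfonate), a fluorinated surfactant that persists in the environment, at a daily 10 mg per kg over 3 weeks. The other 3 mice, the control group, were untreated, and the labels name no vehicle. Each RNA was hybridised to 1 Affymetrix Mouse430_2 array, and the deposited log2 values come from RMA, which makes every value relative to the rest of its array.

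The lysosome is the acid compartment in which cells break down what they have taken up, worn-out organelles and, in the red pulp of the spleen, whole red cells. Its cathepsins are proteases that work at acid pH, and in antigen-presenting cells some of them also trim the invariant chain from MHC class II. The acid comes from the V-ATPase, a rotary pump whose V1 sector burns ATP in the cytosol while its V0 sector passes protons through the membrane. Lamp1 and Lamp2 are the heavily glycosylated proteins that line the inside of that membrane.

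The labels call all 6 mice female, but the arrays do not bear this out. The brightest probe set of Xist, the transcript of the silent X chromosome, lay between 5.62 and 5.86 on the 6 arrays, near the filter floor of 5.62, while that of the Y-linked gene Eif2s3y lay between 9.62 and 9.91. All arrays are affected, so no result could be given without them. Spleen cells were present: all 13 of their markers found on the array, Cd79a and Ms4a1 among them, lay above the filter floor. This does not show that the samples held spleen alone. The hepatocyte marker Alb averaged 11.03 in control and 5.87 in PFOS, and the pigment cell marker Dct 9.23 and 5.70. The correlation of arrays over the 13101 genes tested was 0.9985 to 0.9991 for replicates, and 0.969 to 0.970 for a PFOS with a control array. The bacterial transcripts added to the RNA before labelling averaged 6.11 ± 0.02 in PFOS and 6.65 ± 0.01 in control (SD, n = 3 each; exact two-sided permutation p = 0.1, the smallest that 3 arrays against 3 can give).

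In spleens exposed to PFOS, 15 of 30 measured members rose, most by small amounts, while Ctse fell by more than any of these rose. Ctsf and Atp6v0b were also called lower on their brightest probe sets, but other probe sets of both genes were called higher. A gene was measured if its mean over the 6 arrays reached the 40th percentile of all probe sets, and its brightest probe set stood for it, which left 30 of the 40 genes. Of these 30, limma called 15 higher and 3 lower in PFOS at an adjusted p under 0.05, and 12 were not called. Over all 13101 genes tested, 40.6% were called higher and 26.0% lower, or 66.6% in all, against 60% of the members. The share of members called was therefore near the background. The median change of the members was 0.11 on the log2 scale, against 0.05 for all genes, and the median size of a change was 0.14 against 0.16. The arrays of the groups did not overlap for 22 of the 30 members, with PFOS on the upper side in 19 and the lower side in 3. Among all 13101 genes tested, 71.1% did not overlap in either direction. PFOS was on the upper side in 5663 of these genes and the lower side in 3646. In whole spleen, fewer cells of a type and less RNA per cell cannot be told apart.

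**Figure D1:**
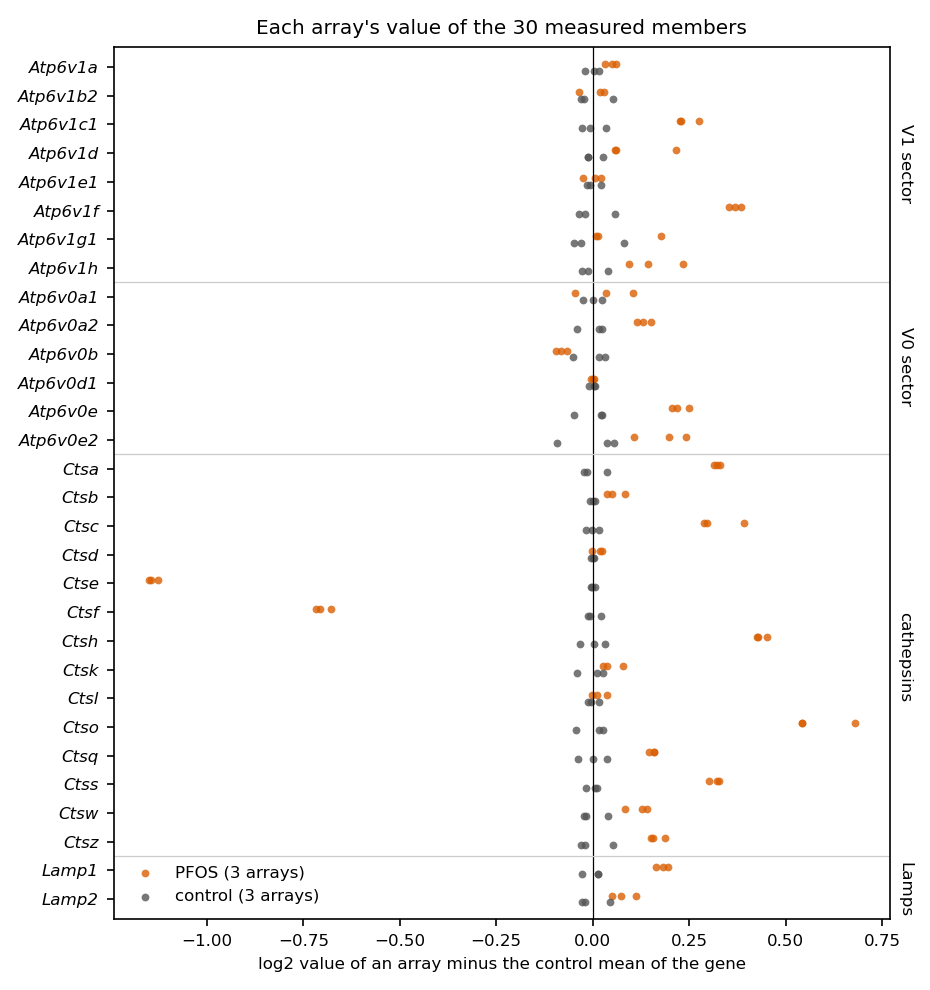
Each array's log2 value of the 30 measured members, minus the gene's control mean; orange points are the 3 PFOS arrays and grey points the 3 control arrays. Ctse and Ctsf lie far to the left in PFOS, and Ctso, Ctsh and Atp6v1f lie farthest to the right.

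**Figure D2:**
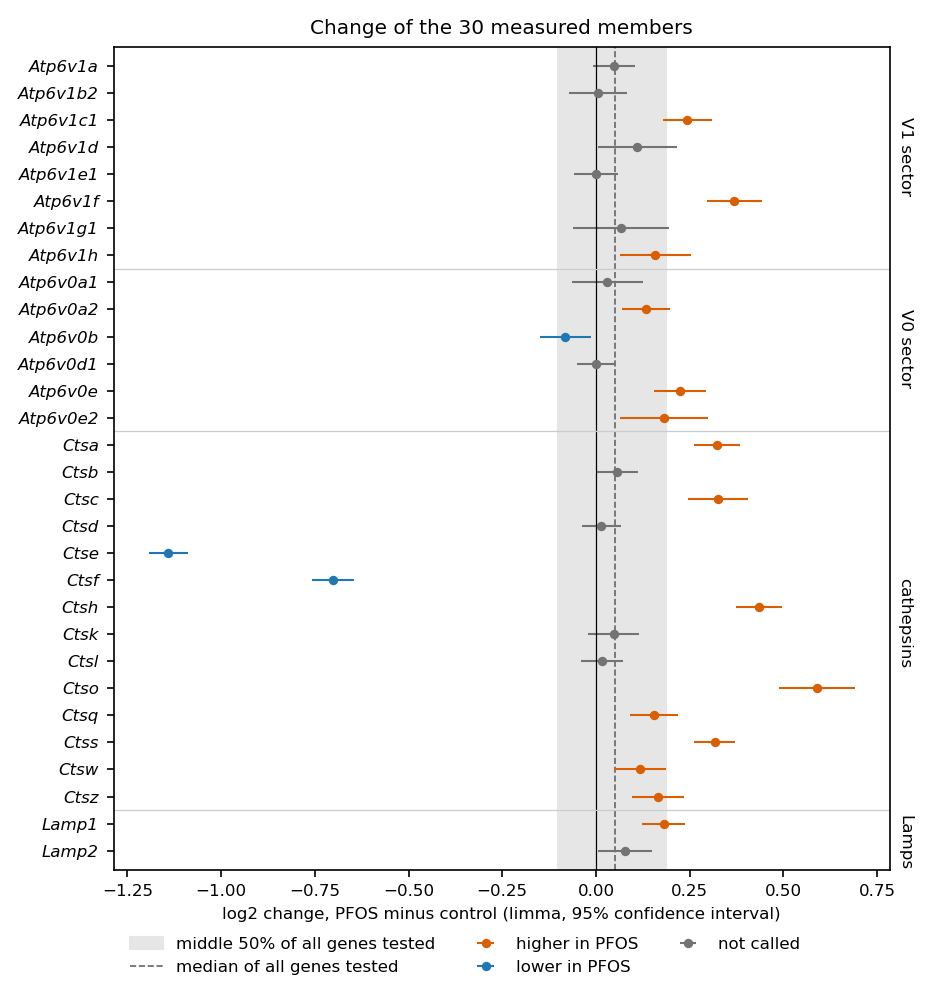
The log2 change of each measured member, PFOS minus control, with limma's 95% confidence interval; the grey band holds the middle 50% of all genes tested, from -0.10 to 0.19, and the dashed line is their median of 0.05. Orange marks members called higher in PFOS, blue those called lower and grey those not called.

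Among the 14 measured cathepsins, 8 were higher, 2 were lower and 4 were not called, with a median change of 0.14. Thus 71.4% were called and 57.1% were higher, against 66.6% and 40.6% of all genes. The largest change of any member was that of Ctse, an aspartic protease of endosomes that in humans is also known from the red cell membrane. Ctse read 11.45, 11.43 and 11.43 in the PFOS arrays, against 12.58, 12.57 and 12.57 in the control arrays. The groups stood more than 1 log2 unit apart, with almost no spread within either. The change was -1.14 ± 0.02 (SE; limma adjusted p = 2.27e-08), or 2.20-fold lower in PFOS. Its dimmer probe set went the same way, by -0.58 (limma adjusted p = 8.63e-05 over all probe sets). The markers of red cell precursors moved in the same arrays: all 11 that were measured fell, by a median change of -1.60 and a range of -0.39 to -2.18. Among them were the erythroid transcription factors Klf1 (-2.05) and Gata1 (-1.46). Their summed intensity was 15966 to 16052 in PFOS and 33239 to 33855 in control. The part of these cells in the fall of Ctse was not tested.

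The fall of Ctsf rests on 1 of its probe sets. Ctsf is a cysteine cathepsin that processes the invariant chain in macrophages. It read 6.94, 6.97 and 6.93 in PFOS, against 7.67, 7.64 and 7.64 in control, a change of -0.70 ± 0.02 (SE; limma adjusted p = 3.39e-07). Its other probe set read 6.52, 6.71 and 6.69 in PFOS and 6.34, 6.37 and 6.42 in control, and was called higher (0.26; limma adjusted p = 0.00558 over all probe sets). The groups thus lay apart on both probe sets, in opposite directions, and which of them follows the gene was not tested. The mean over both was -0.22 (limma adjusted p = 0.000576).

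The rises were led by cysteine cathepsins. Ctso, a widely expressed member of the family with few known substrates, had 9.69, 9.55 and 9.55 in PFOS, against 9.03, 9.04 and 8.97 in control (0.59 ± 0.04, SE; limma adjusted p = 1.75e-05). The groups lay far apart, and the second Ctso probe set rose as well, by 0.43. Ctsh, an aminopeptidase, had 11.16, 11.14 and 11.14 in PFOS, against 10.74, 10.71 and 10.68 in control. This is a rise of 0.44 ± 0.03, or 1.35-fold, and its second probe set rose by 0.60.

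Ctsc, the dipeptidyl peptidase that activates granzymes and neutrophil serine proteases, read 11.29, 11.19 and 11.19 in PFOS and 10.91, 10.90 and 10.88 in control. Ctsa, the carboxypeptidase that also shields lysosomal neuraminidase and beta-galactosidase, read 10.29, 10.28 and 10.29 in PFOS and 10.00, 9.95 and 9.94 in control. Ctss, the main invariant chain protease of B cells and dendritic cells, read 13.00, 13.03 and 13.02 in PFOS and 12.68, 12.70 and 12.71 in control. None of these 3 genes overlapped between the groups, and their brightest probe sets rose by 0.33 ± 0.03, 0.32 ± 0.03 and 0.32 ± 0.02 (SE). All 3 Ctsc probe sets were called higher, and the mean over those above the floor was 0.46. The second Ctsa probe set was not called (0.09; limma adjusted p = 0.0586 over all probe sets), and the mean over both was 0.21. Ctss has a single probe set.

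The other 3 rises among cathepsins were small. Ctsz, a carboxypeptidase also called cathepsin X, read 11.68, 11.65 and 11.64 in PFOS, against 11.55, 11.47 and 11.46 in control (0.17 ± 0.03, SE), and all of its 3 probe sets were called higher. Ctsw, a cathepsin of NK cells and cytotoxic T cells, read 8.11, 8.05 and 8.10 in PFOS, against 8.01, 7.95 and 7.95 in control (0.12 ± 0.03). Of 9 measured NK and cytotoxic markers, 4 were higher and 2 lower, while 10 of 10 T cell markers were higher, and their part in the rise of Ctsw was not tested. Ctsq, known from rodent placenta, read 6.04, 6.06 and 6.06 in PFOS and 5.90, 5.86 and 5.94 in control (0.16 ± 0.03), which is close to the filter floor of 5.62.

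For the remaining 4 cathepsins the test gave no call. Ctsd, the main aspartic protease of lysosomes, read 10.50, 10.52 and 10.52 in PFOS and 10.50, 10.50 and 10.49 in control. The 95% interval of its change ran from -0.04 to 0.07, so a rise as large as that of Ctss or Ctsh lay outside it. Ctsl, which takes the place of Ctss in thymic epithelium, read 10.04, 10.00 and 10.01 in PFOS and 10.02, 9.99 and 10.00 in control. Within arrays, Ctss rose over Ctsl by 0.30 (95% interval 0.23 to 0.37), but the exact permutation test of this and 2 other pairs cannot pass with 3 arrays a group (p = 0.1, adjusted p = 0.3). Ctsk, the collagenase of osteoclasts, read 7.01, 6.96 and 6.95 in PFOS and 6.89, 6.94 and 6.96 in control. Ctsb, both endopeptidase and peptidyl-dipeptidase, read 11.88, 11.89 and 11.92 in PFOS and 11.84, 11.83 and 11.84 in control (0.06 ± 0.02; limma adjusted p = 0.0659). Of its other 4 probe sets, 1 was called higher and 1 lower, and the mean over those above the floor was called lower at -0.07 (limma adjusted p = 0.0196).

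The V1 sector had 8 measured subunits, of which 3 were higher, 0 lower and 5 not called. This is 37.5% called, against 66.6% of all genes. Atp6v1f, the small F subunit of the central stalk, rose most among the 14 measured Atp6v subunits. It read 11.05, 11.02 and 11.04 in PFOS, against 10.73, 10.65 and 10.63 in control (0.37 ± 0.03, SE; limma adjusted p = 3.55e-05). Atp6v1c1, the C1 subunit that holds V1 to V0 while the pump is assembled, read 10.36, 10.32 and 10.32 in PFOS and 10.12, 10.08 and 10.06 in control (0.24 ± 0.03), and all of its 3 probe sets were called higher. Atp6v1h, the subunit that regulates the pump's ATPase, read 8.94, 8.80 and 8.85 in PFOS and 8.74, 8.69 and 8.68 in control (0.16 ± 0.04). The groups did not overlap for these 3 genes. The call of Atp6v1h rests on its brightest probe set: a second one above the floor was not called (-0.01), and the mean over both was not called either (0.072; limma adjusted p = 0.111).

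The other 5 V1 subunits were not called. Atp6v1b2, the B2 subunit of the ring that burns ATP, read 9.55, 9.49 and 9.56 in PFOS and 9.51, 9.50 and 9.58 in control, with a 95% interval from -0.07 to 0.08. Atp6v1e1, a peripheral stalk subunit, read 10.15, 10.18 and 10.20 in PFOS and 10.17, 10.16 and 10.20 in control, with an interval from -0.06 to 0.06. Its stalk partner Atp6v1g1 read 11.62, 11.46 and 11.45 in PFOS and 11.53, 11.41 and 11.40 in control, replicate 1 being the highest array of each group. The catalytic subunit Atp6v1a (0.05) and the central stalk subunit Atp6v1d (0.11) were the other subunits without a call.

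The V0 sector had 6 measured subunits, of which 3 were higher, 1 was lower and 2 were not called. The share called, at 66.7%, was near the 66.6% of all genes. Atp6v0e, the small e1 subunit in the membrane, read 11.35, 11.30 and 11.32 in PFOS, against 11.12, 11.12 and 11.05 in control (0.22 ± 0.03, SE; limma adjusted p = 0.000363). Its isoform Atp6v0e2 read 6.85, 6.80 and 6.72 in PFOS and 6.64, 6.66 and 6.52 in control (0.18 ± 0.05; limma adjusted p = 0.0139). The difference between the changes of these isoforms was 0.04 (95% interval -0.07 to 0.16, exact permutation p = 0.4).

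The a subunit carries the proton path and sends the pump to its membrane. Atp6v0a2, the isoform known from Golgi and endosomes, read 8.71, 8.72 and 8.74 in PFOS, against 8.55, 8.61 and 8.61 in control (0.13 ± 0.03, SE; limma adjusted p = 0.00368). Atp6v0a1, the isoform prominent in neurons, read 7.04, 7.11 and 6.96 in PFOS and 7.00, 7.03 and 6.98 in control on its brightest probe set. These arrays overlapped, but a second Atp6v0a1 probe set read 6.45, 6.43 and 6.41 in PFOS and 6.67, 6.78 and 6.74 in control (-0.30; limma adjusted p = 0.000432 over all probe sets), and another, under the filter floor, changed by -0.64. The mean over those above the floor was called lower, at -0.14 (limma adjusted p = 0.00644). The change of Atp6v0a2 less that of Atp6v0a1 was 0.10, with a 95% interval from -0.05 to 0.26 (exact permutation p = 0.2). The a3 isoform of lysosomes and osteoclasts, Tcirg1, which the rule does not take and which is named here after its value was seen, rose by 0.12 ± 0.04 (SE; limma adjusted p = 0.0234).

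Of the other V0 subunits, Atp6v0d1, which joins the rotor to V1, had 9.64, 9.65 and 9.65 in PFOS and 9.64, 9.65 and 9.65 in control, with a 95% interval from -0.05 to 0.05. Atp6v0b, a proteolipid of the rotor ring, read 9.08, 9.07 and 9.06 in PFOS, against 9.17, 9.10 and 9.18 in control (-0.08 ± 0.03, SE; limma adjusted p = 0.0406). This call is fragile. In the fit of every probe set, the same probe set was not called (limma adjusted p = 0.0818). The gene was not called without the filter (limma adjusted p = 0.062) or with quantile normalization (-0.03, limma adjusted p = 0.336). Both other probe sets of Atp6v0b were called higher, by 0.33 and 0.24, as was the mean over all 3, by 0.16. The call was lost when any array but control replicate 2 was left out (limma adjusted p 0.0558 to 0.129), and the change was 0.45 with arrays scaled on the labelling spikes.

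Lamp1, the most abundant glycoprotein of the lysosomal membrane, read 12.07, 12.10 and 12.09 in PFOS, against 11.88, 11.92 and 11.92 in control. The groups did not overlap, and the rise was 0.18 ± 0.02 (SE; limma adjusted p = 0.000446), or 1.13-fold. Lamp2, needed for fusion with autophagosomes, read 11.35, 11.31 and 11.29 in PFOS and 11.28, 11.22 and 11.21 in control on its brightest probe set (0.08 ± 0.03; limma adjusted p = 0.0538). Of its other 3 probe sets, 2 were called higher, by 0.21 and 0.16.

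The other 10 member genes lay under the filter floor. They include isoforms known from kidney and other specialised epithelia (Atp6v1b1 and Atp6v0a4), from testis (Atp6v1e2) and from rodent placenta (Ctsj, Ctsm and Ctsr). Their 11 probe sets had group means of at most 5.45, so their changes may depend on the background of the arrays. That background was not measured. In the fit of every probe set 3 of these genes were called, all higher in PFOS: Lamp5, a membrane protein of neurons and plasmacytoid dendritic cells (0.33), Atp6v1c2 (0.25) and 1 of the 2 probe sets of Atp6v0d2, the d2 subunit of osteoclasts and macrophages (0.21). The gene fit without the filter called the same 3 and Atp6v0a4 higher, the last by 0.080 (limma adjusted p = 0.043). Of all 18193 genes that fit called 6290 higher and 3836 lower. The fit of every probe set called 29.6% of all probe sets higher and 21.2% lower.

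Over every member probe set, 34 of 80 were called higher and 6 lower, while 29.6% of all 34945 probe sets were called higher and 21.2% lower. Several probe sets measured 21 of the genes, and 2 of these genes, Ctsb and Ctsf, had probe sets called in both directions.

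**Figure D3:**
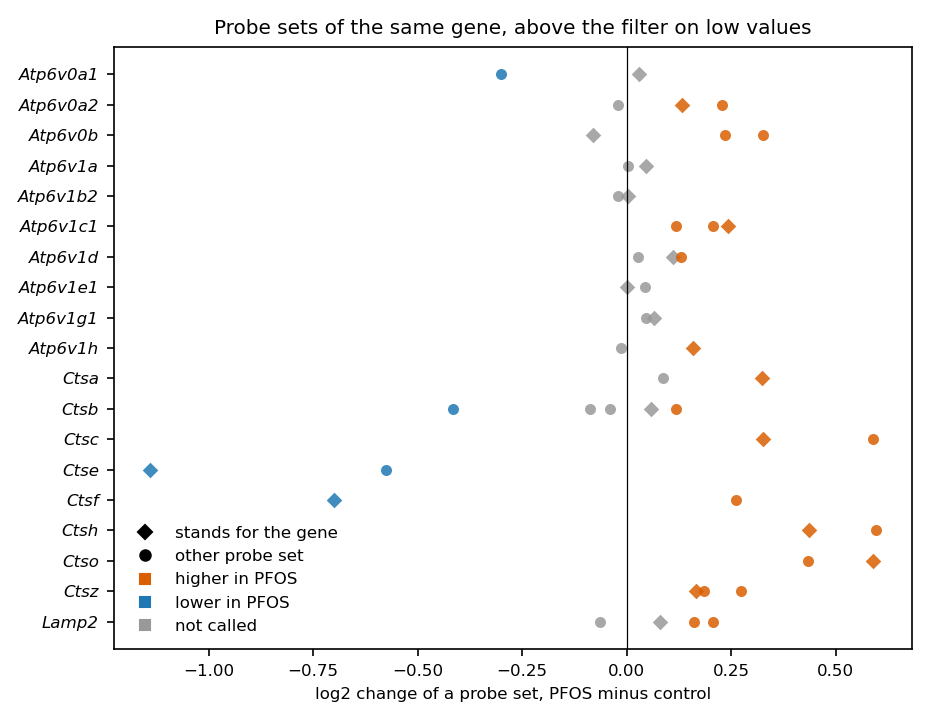
The log2 change of every probe set above the filter floor, for the 19 member genes that have more than 1; diamonds stand for the gene and circles are its other probe sets. Ctsc, Ctse, Ctsh, Ctso, Ctsz and Atp6v1c1 keep their direction on every probe set shown, while Ctsb and Ctsf have called probe sets on both sides of 0.

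Among other genes of the lysosome, rises also outnumbered falls. Of 33 measured acid hydrolases, 23 were higher and 1 lower (median 0.17). The phospholipase Pla2g15 rose by 0.40 ± 0.03 (SE), the ceramidase Asah1 by 0.34 ± 0.02, the iduronidase Idua by 0.34 ± 0.03 and the hexosaminidase chain Hexa by 0.30 ± 0.02. Of 23 other lysosomal membrane genes, 13 were higher and 1 lower (median 0.11). Sidt2 rose by 0.26, Cln3 by 0.26 and Laptm4b by 0.33, while Tmem9 fell by 0.55. In both lists the share of genes called, at 72.7% and 60.9%, was near that of all genes. The share called higher was 69.7% and 56.5%. Rises outnumbered falls over all genes as well, at 40.6% against 26.0%.

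Lists of genes that assemble or sort the members, or are listed as cathepsin inhibitors, differed in how many were called, against 66.6% of all genes. Of 12 genes on the array that were listed as cathepsin inhibitors 7 were measured, and all 7 rose (median 0.28). The serpins Serpinb6a and Serpinb9 are among these 7. The stefin Cstb rose by 0.42 ± 0.03 and the serpin Serpinb6a by 0.40 ± 0.03 (SE). The cystatin Cst3 rose by 0.24 ± 0.02 and the propeptide-like inhibitor Ctla2a by 0.28 ± 0.04. Which cathepsins each of them inhibits was not tested. Of 13 V-ATPase accessory and regulatory genes, 9 were higher and 3 lower, or 92.3% called (median 0.12). Rogdi, linked to V-ATPase assembly, rose by 0.53 and the TLDc protein Oxr1 by 0.26, while its relative Ncoa7 fell by 0.47. The rise of Oxr1 rests on an _a_at probe set. Without _s_at, _x_at and _a_at probe sets its change was -0.026 (limma adjusted p = 0.636). Of 16 genes that tag and sort lysosomal enzymes, 9 were higher and 2 lower (median 0.07), and the share called, at 68.8%, was near that of all genes. It held the activator proteins Gm2a at 0.43 and Psap at 0.19 and the AP-1 adaptor subunits Ap1m1 at 0.32 and Ap1b1 at -0.26.

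The MiT/TFE transcription factors, which switch on lysosomal genes, and the nutrient sensors that restrain them were mixed. Of 21 measured, 9 were higher and 3 lower (median 0.04). The share called was 57.1% and the share higher 42.9%, against 66.6% and 40.6% of all genes, so the list was near or below the background. Tfec, the macrophage member of the family, rose by 0.61 ± 0.03 (SE; limma adjusted p = 4.92e-06) and Tfeb by 0.28 ± 0.02 (limma adjusted p = 4.19e-05). The Ragulator subunit Lamtor4 rose by 0.30. Fnip2, a partner of folliculin, fell by 1.17 on the log2 scale (limma adjusted p = 5.25e-08).

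**Figure D4:**
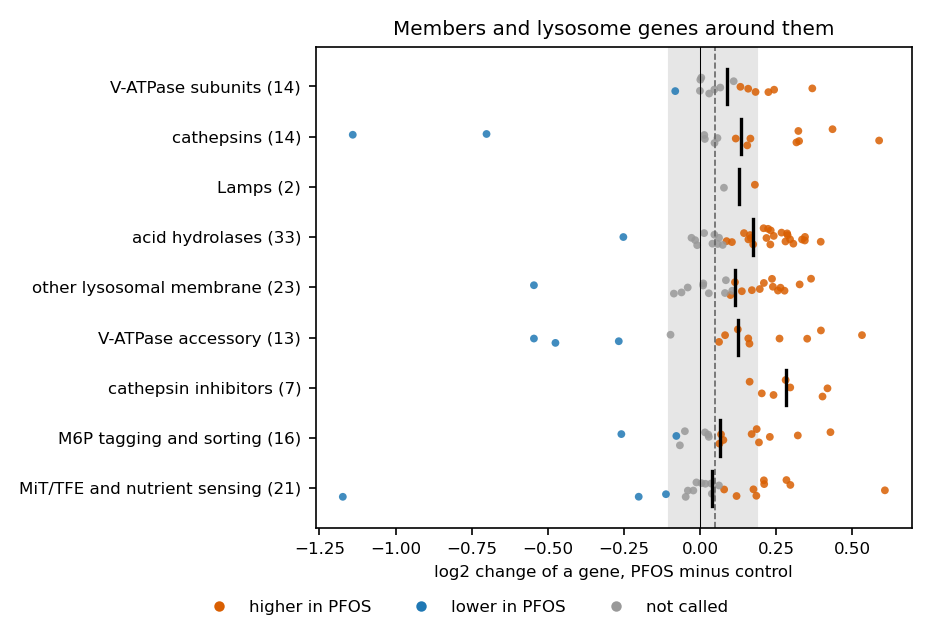
The log2 change of each measured gene, PFOS minus control, for the members and for 6 lists of other lysosome genes, with the number measured in brackets; black bars are list medians, the dashed line is the median of all genes and the grey band holds their middle 50%. All 7 genes listed as cathepsin inhibitors lie to the right of 0, and Ctse and Fnip2 lie farthest to the left.

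MiT/TFE factors bind CACGTG, best with the flanks of TCACGTGA, so the windows from 250 bases before to 50 bases after the start sites of the members (RefSeq, GRCm38.p6) were searched for both. Each motif reads the same on both strands, and the longer one contains the shorter. A window was found for 30 of the 40 member genes. CACGTG was present in 9 of these 30 genes (30%) and in 8.09% of all genes with a window (7.15% of all windows), TCACGTGA in 5 of 30 (16.7%) and in 1.12% (0.974% of windows). Of the 5 genes with TCACGTGA, Ctsa and Atp6v0e rose, and Ctsd, Atp6v0d1 and Atp6v1a were not called. The 9 genes with CACGTG numbered 3 higher, 2 lower and 4 not called. The 2 lower are Ctsf and Atp6v0b, each of which has another probe set called higher. A match is a description of these letters and not a binding site. The stretches of the 6 genes with the largest changes among the 8 with values given above by array are shown to let the spacing be seen, 5′ to 3′ on the strand of the gene, with CACGTG in capitals.
Ctsf, chr19:4855059-4855118, plus strand: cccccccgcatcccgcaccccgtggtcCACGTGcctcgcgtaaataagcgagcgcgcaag
Ctsa, chr2:164833741-164833803, plus strand: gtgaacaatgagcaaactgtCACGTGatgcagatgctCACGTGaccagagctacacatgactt
Atp6v0e, chr17:26676372-26676431, plus strand: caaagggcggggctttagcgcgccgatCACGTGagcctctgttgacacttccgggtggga
Lamp1, chr8:13159080-13159171, plus strand: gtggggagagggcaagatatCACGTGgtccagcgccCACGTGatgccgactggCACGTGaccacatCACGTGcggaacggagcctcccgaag
Atp6v0b, chr4:117887322-117887385, minus strand: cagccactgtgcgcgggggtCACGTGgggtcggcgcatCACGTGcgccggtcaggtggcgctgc
Ctsl, chr13:64370711-64370770, minus strand: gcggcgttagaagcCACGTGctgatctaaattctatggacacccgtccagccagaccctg

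Lamp1 held 4 copies within its stretch, Ctsa and Atp6v0b 2 each, and the other 3 genes 1 each. Counted from the start site, the first copy began at position -79 in Ctsf and at -236 in Ctsl. Ctsf, Lamp1, Atp6v0b and Ctsl lack the longer motif.

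Markers of several cell types changed in the same arrays. Macrophage markers numbered 12 higher and 0 lower among 16 (median 0.25), and their intensities summed to 35736 to 35801 in PFOS, against 29054 to 29277 in control. Their changes ran from -0.04 to 0.68. Vcam1 (0.68) and Spic (0.57), named after their values were seen, rose most. Slc40a1 rose by 0.19 and Csf1r by 0.14. The 4 markers not called were Adgre1 (0.02), Hmox1 (0.04), Marco (-0.003) and Siglec1 (-0.04). Of 10 B cell markers 9 were higher (median 0.48), and of 11 dendritic cell markers 7 were higher and 1 lower (median 0.17). In the other direction, 8 of 11 neutrophil markers, 9 of 9 markers of dividing cells and 14 of 14 hepatocyte markers were lower. So were 3 of 4 pigment cell markers and 5 of 5 pancreatic acinar cell markers. Hepatocyte markers summed to 568 to 614 in PFOS and 7949 to 7987 in control. The part of any of these cells in the changes of the members was not tested.

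The direction of the small changes depends on how arrays are scaled. With arrays scaled on the labelling spikes, the median of all genes was 0.59 and 28 of 30 members were called higher, leaving only Ctse (-0.61) and Ctsf (-0.17) lower. With scaling on 43 ribosomal protein genes, the median of all genes was -0.01 and 11 members were higher and 4 lower. Relative to the median of all genes, Ctse changed by -1.19 and Ctso by 0.54 with both of these scalings and in the deposited values, since such a scaling adds the same amount to every gene. The share of calls that were higher among all genes was 61.0% as deposited, 45.3% with ribosomal protein genes and 94.3% with labelling spikes.

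**Figure D5:**
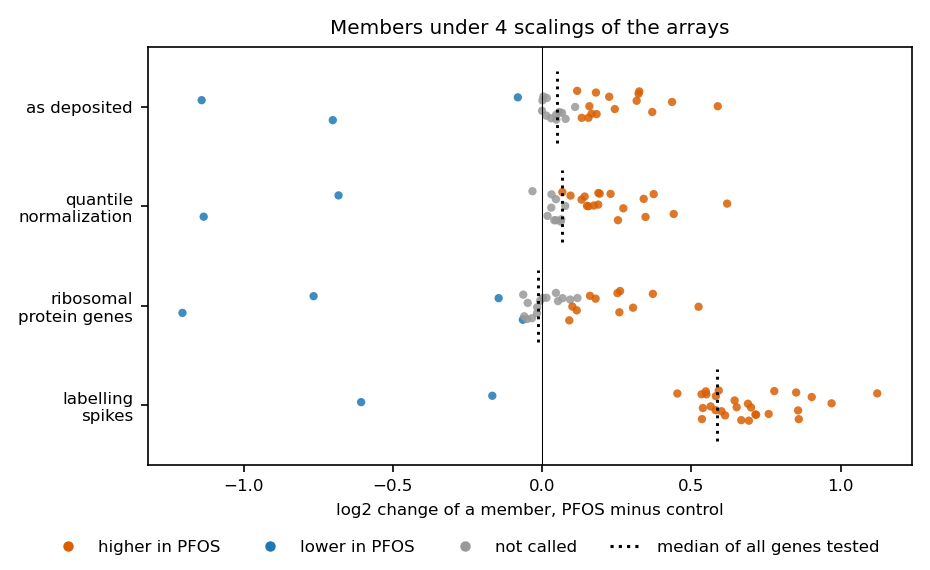
The log2 change of the 30 measured members, PFOS minus control, with the deposited values and under 3 other scalings of the arrays; dotted bars mark the median of all genes. Ctse and Ctsf are lower in all 4, and with labelling spikes the other members lie to the right of 0.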

How the data were processed

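The authors deposited RMA log2 values, 1 per probe set and array, per the submitters' processing notes. Neither the RMA version nor any filter is given in the sources used here. The table of 45101 probe sets held 64 array controls, 34945 with 1 gene symbol, 932 with several and 9160 with none. Probe sets with 1 symbol were kept if their mean reached 5.62, the 40th percentile of probe set means without array controls, and the brightest stood for its gene. PFOS was compared with control over 13101 genes by the moderated linear models of limma 3.58.1 under R 4.3.3 (functions lmFit and eBayes). Tests were two-sided, and p-values were adjusted by Benjamini-Hochberg. A second fit took all 34945 probe sets without the filter. Changes are given with limma's SE. All 80 member probe sets matched the GRCm38.p6 gene table, and 0 symbols changed.

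Members and lists were chosen with earlier results of these data known. Given by array were the 10 largest rises and falls that did not overlap, all cathepsins and Lamps, and V-ATPase subunits with isoforms. Up to 4 genes with the smallest p were named per pathway list and the first markers of a list. Replicates are biological by their labels, which do not describe them further, and p-values measure only the spread between them, which may be technical. The number of arrays limits precision. In simulated data for this comparison (13101 genes, 200 changed), limma recovered 100% of log2 changes of 1, 92% of 0.5, 62% of 0.25 and 2% of 0.1, with 4 false calls. In the real fit 66.6% of genes were called, which makes the Benjamini-Hochberg adjustment less strict than in the simulation. These shares therefore do not measure how many small changes the real fit could find.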

Additional observations from a re-analysis of the deposited data

How the results depend on the processing

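The member counts were recomputed with a replicate block, other filters, scalings, variance priors, weights, probe set choices and a stricter threshold, and without each array. Except with labelling spikes, 11 to 19 member genes were called higher and 2 to 4 lower. With scaling on the labelling spikes, 28 member genes were higher, and 76 member probe sets were higher and 2 lower. That scaling also turned Atp6v0b to 0.45, Atp6v0d1 to 0.53, Ncoa7 to 0.059 and Ap1b1 to 0.28, as its construction adds 0.53 to every change. The mean over probe sets turned Ctsb to -0.074, Atp6v0a1 to -0.14 and Atp6v0b to 0.16. It also lost the call of Atp6v1h (0.072) and shrank Ctsf to -0.22 and Ctsa to 0.21. Leaving out _s_at, _x_at and _a_at probe sets turned Oxr1 to -0.026. Of the 18 calls, 14 remained with ribosomal protein genes, which lost Ctsw, Atp6v0a2, Atp6v0e2 and Atp6v1h. Without any 1 array at least 17 remained, Atp6v0b being the call that was lost. Same-numbered arrays of the groups correlated at 0.32, 0.14 and 0.10 in their deviations, and differently numbered ones at -0.23 to 0.13. The labels do not say that same-numbered arrays were paired. With the replicate block, 18 members were higher, with Lamp2, Atp6v1d and Atp6v1g1 added, and 3 lower. The median over members and the spike summary were settings chosen after seeing the data. Without scanner files, signal over background is unknown, which limits what can be said of members under the floor.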
